A study of Arabidopsis thaliana with 4 samples.

Results

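The expansin genes outside root hairs were followed in 12-day-old Arabidopsis thaliana seedlings of wild type (WT, accession Col-0) and of the jmj28-3 line. The set was every gene whose deposited description holds the word expansin, apart from the root hair expansins EXPA7 and EXPA18, which gave 34 of the 33602 genes in the table. By these descriptions 23 were alpha-expansins (EXPA), 6 were beta-expansins (EXPB), 3 were expansin-like A genes (EXLA), 1 was expansin-like B (EXLB), and 1 was a degraded remnant of a former expansin gene. Both lines were grown on MS-based medium with 1% sucrose at 23 °C, under 16 h of light and 8 h of dark, and polyadenylated RNA of whole seedlings gave 4 libraries, 2 per genotype. JMJ28 encodes a jumonji-domain protein of the histone demethylase type, and neither the labels nor the deposited table states the lesion in jmj28-3. The values are FPKM, in which fragments are divided by the length of the transcript and by library size.

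Expansins are small secreted proteins that loosen plant cell walls as cells grow. They act best in acid walls, where plasma-membrane proton pumps lower the pH, and they let cellulose and the polymers around it slide without cutting them. Alpha-expansins and beta-expansins are the classes with known wall-loosening action, while the expansin-like genes were named for their sequence. In seedlings, expansins are known from expanding leaves and hypocotyls, growing and branching roots, and guard cells.

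Summed FPKM of the 4 libraries ran from 983897 to 991510. Read numbers were not among the values used here. The commonest ratio of low FPKM values between libraries placed the other 3 libraries at 0.993 to 1.18 times the depth of WT replicate 1. JMJ28 itself had WT values of 3.80 and 5.54 FPKM and jmj28-3 values of 3.65 and 3.33, which did not pass the test described next (adjusted p = 0.327), so its level does not check the genotype labels. Nothing in the labels ties the replicates to separate cultures, so p-values cover the spread among these 4 libraries alone, and that spread may be technical. In whole seedlings, fewer cells of a type and less RNA per cell cannot be told apart.

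In jmj28-3 seedlings, expansin genes of different classes were called in opposite directions. All 3 EXLA genes were higher, at 2.14-fold to 3.96-fold of the WT mean FPKM, and 6 alpha-expansin genes were lower, by 1.31-fold to 2.31-fold. The alpha-expansin gene with the most transcript, EXPA1, had the largest fall among them. For comparison, 4.18% of all tested genes were called higher and 3.79% lower. No tested EXPB gene and no EXLB gene was called.

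Calls came from limma on log2(FPKM + 1), fitted over the 20232 genes with a mean FPKM of at least 0.5, at a Benjamini-Hochberg adjusted p under 0.05. Of the 34 genes, 21 passed this filter on low values, and 3 were called higher and 6 lower. Over all tested genes 7.97% were called in either direction. The genotypes' values did not overlap for 16 of the 21 genes, against 55.2% of all tested genes. The median log2 change of the 21 genes was -0.10, beside -0.03 over all tested genes. Fits without 1 library called fewer of the 21 genes and also fewer of all tested genes. Leaving out jmj28-3 replicate 2 removed every call among the 21. Whole-table counts of these fits are in the closing section.

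**Figure D1:**
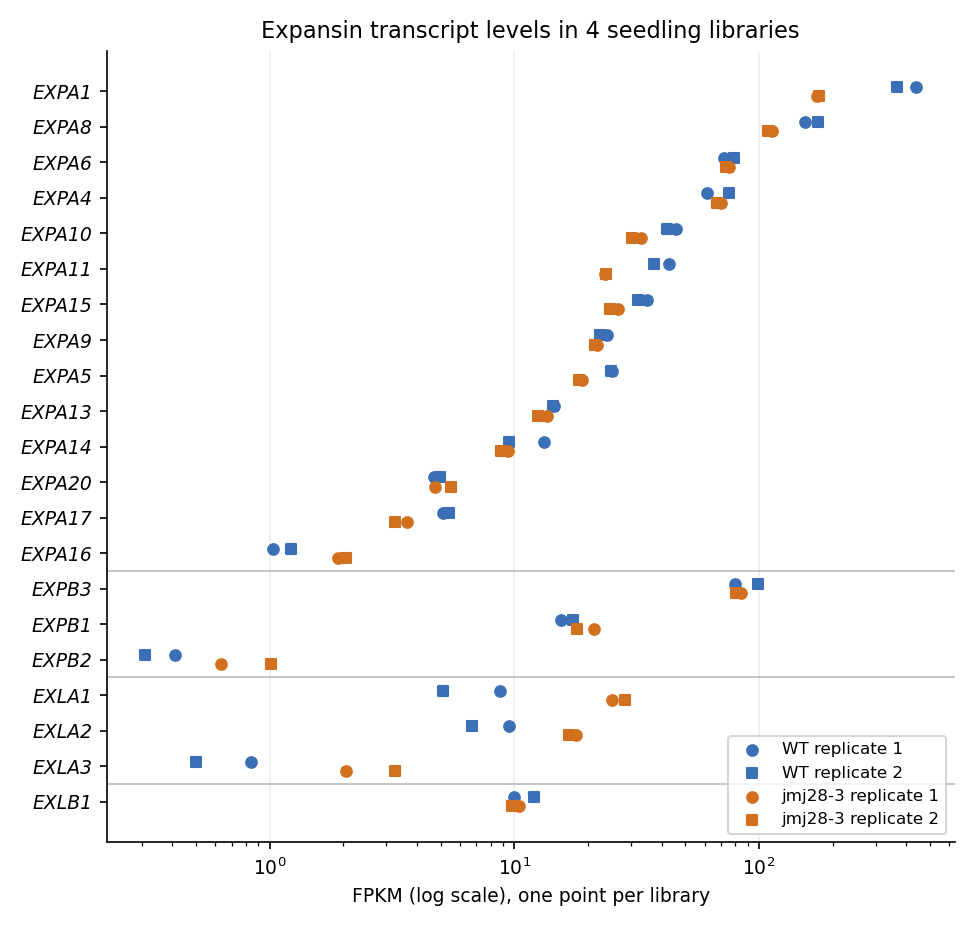
FPKM on a log scale (x axis) of the 21 tested expansin genes (y axis, grouped as EXPA, EXPB, EXLA and EXLB), with 1 point per library; blue is WT, orange is jmj28-3, circles are replicate 1 and squares replicate 2. EXPA1 stands highest, at 366.98 and 439.71 FPKM in the WT libraries and 172.39 and 176.1 in the jmj28-3 libraries, and the 3 EXLA genes lie further right in jmj28-3.

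The EXLA genes formed the rising class, with all 3 members tested and all 3 called. EXLA1 (AT3G45970) read 8.77 and 5.11 FPKM in the WT libraries against 25.19 and 28.47 in the jmj28-3 libraries. Both jmj28-3 libraries lay far above both WT libraries, and the mean went from 6.94 ± 2.59 to 26.8 ± 2.32 FPKM (SD, n = 2). Its log2 change was 1.85 (SE 0.222, limma adjusted p = 0.0109), the largest among the 21 genes in either direction.

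EXLA2 (AT4G38400), a gene linked to responses to necrotrophic fungi, stood at 9.51 and 6.73 FPKM in the 2 WT libraries and at 17.91 and 16.81 in those of jmj28-3. The groups did not overlap, and the log2 change was 1.03 (SE 0.155, limma adjusted p = 0.0206). EXLA3 (AT3G45960) was the weakest of the class in level, with 0.84 and 0.50 FPKM in the WT libraries and 2.05 and 3.25 in the jmj28-3 libraries. Its groups were apart too, with a 3.96-fold ratio of means and a log2 change of 1.12 on the log2(FPKM + 1) scale (SE 0.217, limma adjusted p = 0.0409). The scale understates the change of low genes, so the log2 changes of EXLA3 and EXLA1 differ more than their ratios of means, 3.96 and 3.87. Summed over the class, EXLA transcript was 19.12 and 12.34 FPKM in the WT libraries and 45.15 and 48.53 in the jmj28-3 libraries.

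EXLA3 and EXLA1 lie next to each other on chromosome 3 of TAIR10.1, both on the plus strand, at 16892702 to 16894153 and 16896166 to 16897308, with 2012 bases and a tRNA gene between them. EXLA2 lies on the minus strand of chromosome 4, at 17978422 to 17979740. The coding sequences of EXLA1 and EXLA3 were 86.6% identical and shared a run of 57 identical bases, and EXLA1 and EXLA2 were 84.7% identical with a longest shared run of 23 bases. Reads that lie wholly within the shared run of EXLA1 and EXLA3 could be assigned to either gene, so the low values of EXLA3 are uncertain. The degree depends on read length, which was not among the values used here. The end of EXLA1 overlaps AT3G45980, on the other strand, by 22 bases. No source used here states whether strand was used in counting.

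Calls of this class were lost in some fits that left out 1 library, and why they were lost was not tested. EXLA1 was not called when either jmj28-3 library was left out (adjusted p up to 0.134), and EXLA2 lost its call in those 2 fits as well (adjusted p up to 0.163). EXLA3 was not called in any of the 4 fits that left out a library, with adjusted p from 0.0784 to 0.212. Log2 changes in these fits stayed above 0, from 1.51 to 2.19 for EXLA1, from 0.80 to 1.25 for EXLA2 and from 0.88 to 1.36 for EXLA3. With all libraries kept, EXLA2 and EXLA3 also lost their calls when every gene above 0 was tested (limma adjusted p = 0.0597 and 0.0769). The same held in a limma fit with no variance trend (adjusted p = 0.0574 and 0.0667). EXLA1 kept its call in both, so the call of the whole class depended on these settings.

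**Figure D2:**
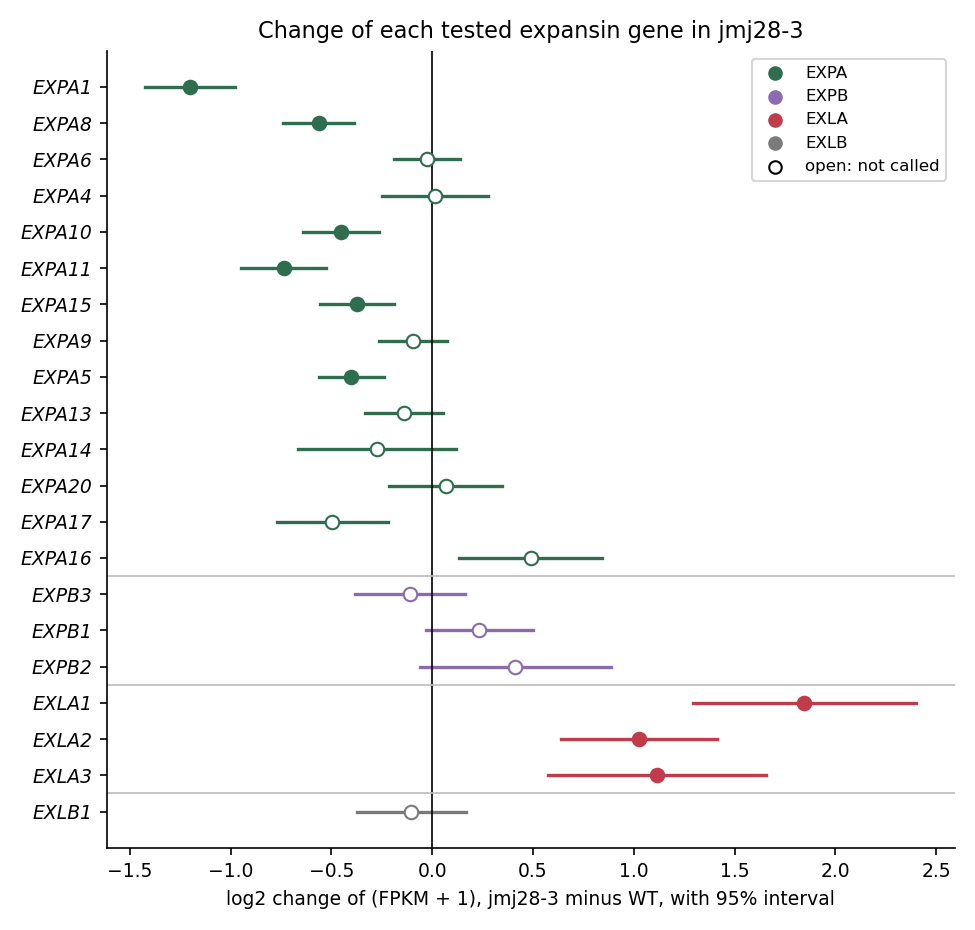
Log2 change of (FPKM + 1) in jmj28-3 minus WT (x axis) for the 21 tested expansin genes (y axis); bars are 95% intervals from limma, filled points were called at an adjusted p under 0.05, and colours mark the classes. All 3 EXLA points are filled and right of 0, from 1.03 to 1.85, and the 6 filled EXPA points are left of 0, from -0.37 to -1.20.

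The 250 bases before the annotated start of the EXLA genes and of EXPA1 are shown because these are the genes that rose as a class and the gene with the largest fall. The windows are from the RefSeq genome TAIR10.1, written 5′ to 3′ along each gene's strand, at chr3:16895916-16896165 (plus) for EXLA1, chr3:16892452-16892701 (plus) for EXLA3, chr4:17979741-17979990 (minus) for EXLA2 and chr1:26141476-26141725 (plus) for EXPA1. Capitals mark matches on either strand to any of 5 short motifs. These were CACGTG (the G-box), TGTCTC (from the auxin response element), CGTGTG (from a brassinosteroid response element), CGCGT (from the element of calmodulin-binding CAMTA factors) and TATCCA (from a sugar response element).
EXLA1: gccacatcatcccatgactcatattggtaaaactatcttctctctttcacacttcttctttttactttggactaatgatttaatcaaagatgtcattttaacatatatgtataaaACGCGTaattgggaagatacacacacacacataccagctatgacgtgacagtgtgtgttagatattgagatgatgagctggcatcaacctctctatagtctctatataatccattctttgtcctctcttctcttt
EXLA3: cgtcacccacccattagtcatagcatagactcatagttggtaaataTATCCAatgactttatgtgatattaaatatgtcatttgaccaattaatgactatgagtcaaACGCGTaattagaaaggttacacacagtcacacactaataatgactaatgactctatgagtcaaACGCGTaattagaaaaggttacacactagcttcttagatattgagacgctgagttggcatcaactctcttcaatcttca
EXLA2: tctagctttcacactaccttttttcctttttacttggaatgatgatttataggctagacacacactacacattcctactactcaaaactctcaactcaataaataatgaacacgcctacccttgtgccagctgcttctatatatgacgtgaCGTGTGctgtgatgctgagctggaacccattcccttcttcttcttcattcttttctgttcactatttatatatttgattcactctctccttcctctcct
EXPA1: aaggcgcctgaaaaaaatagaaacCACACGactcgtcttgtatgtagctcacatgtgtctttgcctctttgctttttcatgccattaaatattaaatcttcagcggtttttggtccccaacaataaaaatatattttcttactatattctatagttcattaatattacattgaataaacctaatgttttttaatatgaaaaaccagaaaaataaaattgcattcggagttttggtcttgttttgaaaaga

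EXLA1 and EXLA3 both held CGCGT, in each case as ACGCGT, which matches on both strands at overlapping positions. It began 135 bases before the start of EXLA1, and 143 and 79 bases before that of EXLA3. Within the EXLA3 window a run of 26 bases that contains ACGCGT occurs in 2 copies, beginning 154 and 90 bases before the start. CGCGT was in 6.87% of the windows of all 27443 protein-coding genes and in 5 of the 32 windows of protein-coding expansin genes, 15.6%. The other 3 were EXPA6, which was not called, and EXPA12 and EXPB4, which were too low for a test. EXLA2 held no CGCGT and 1 CGTGTG, and EXPA1 held 1 CGTGTG on the other strand. CGTGTG was in 5.37% of all windows and in 4 of the 32 expansin windows. The G-box was in 1 expansin window, that of EXPB2, and in 6.49% of all windows. TGTCTC was in 3 expansin windows, those of EXPA5, EXPA6 and EXPA10, and in 10.95% of all windows. TATCCA was in 6 expansin windows and in 13.6% of all windows. A match to letters is a description of the window and shows no bound factor.

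Among the alpha-expansins, 14 of 23 genes were tested, 6 were lower, none was called higher by limma, and 8 were not called. At an unadjusted p under 0.05 the counts were 7 lower and 1 higher, where 13.7% of all tested genes were lower and 10.6% higher at that level. The median log2 change of the 14 was -0.32. EXPA1 (AT1G69530), known from guard cells, where it aids stomatal opening, had WT values of 439.71 and 366.98 FPKM and jmj28-3 values of 172.39 and 176.1. Both jmj28-3 values were well under both WT values, and the mean fell from 403 ± 51.4 to 174 ± 2.62 FPKM (SD, n = 2), 2.31-fold lower (log2 change -1.20, SE 0.0896, limma adjusted p = 0.00331). The call was lost without jmj28-3 replicate 2 (adjusted p = 0.0665) and kept without each of the other 3 libraries.

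EXPA8 (AT2G40610), the alpha-expansin with the next highest level, read 155.06 and 174.37 FPKM in the WT libraries against 113.28 and 108.83 in the jmj28-3 libraries. The groups did not overlap, and it was 1.48-fold lower (log2 change -0.56, SE 0.0702, limma adjusted p = 0.0122). EXPA11 (AT1G20190) stood at 42.95 and 37.13 FPKM in the 2 WT libraries and at 23.46 and 23.65 in those of jmj28-3, where the pair of values was tight and far under WT. It was 1.70-fold lower, with a log2 change of -0.74 (SE 0.0849, limma adjusted p = 0.0094).

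The other 3 lower genes had smaller changes at moderate levels. EXPA10 (AT1G26770), which is known to promote leaf cell growth, had WT values of 45.73 and 41.99 FPKM and jmj28-3 values of 33.11 and 30.4, 1.38-fold lower (limma adjusted p = 0.0274). EXPA5 (AT3G29030), linked to growth driven by brassinosteroids, read 24.98 and 24.90 FPKM in the WT libraries against 18.91 and 18.34 in the jmj28-3 libraries, 1.34-fold lower (limma adjusted p = 0.0247). EXPA15 (AT2G03090) stood at 34.77 and 32.16 FPKM in the 2 WT libraries and at 26.54 and 24.65 in those of jmj28-3, 1.31-fold lower (limma adjusted p = 0.0431). In each of these the higher jmj28-3 library was under the lower WT library. EXPA15 lay closest to the threshold and lost its call under median-of-ratios scaling (adjusted p = 0.0595).

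None of the 3 was called in a fit that left out a library, with adjusted p from 0.0763 to 0.191 for EXPA10, 0.103 to 0.183 for EXPA5 and 0.103 to 0.254 for EXPA15. EXPA11 was not called without either jmj28-3 library (adjusted p up to 0.111), and EXPA8 was called only without WT replicate 1 (adjusted p = 0.0331, up to 0.135 in the other 3). The log2 change of each of the 6 genes was below 0 in all 4 of these fits.

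The 8 tested alpha-expansins that were not called included genes with high levels. EXPA6 (AT2G28950) had WT values of 72.04 and 79.38 FPKM and jmj28-3 values of 75.17 and 73.12, and the groups overlapped. Its log2 change was -0.03, with a 95% interval of -0.19 to 0.14, and it was above 0 with median-of-ratios scaling (0.006). EXPA4 (AT2G39700) overlapped as well, at 61.11 and 75.52 FPKM in the WT libraries and 70.25 and 67.15 in the jmj28-3 libraries, with an interval of -0.25 to 0.28. EXPA9 read 23.89 and 22.51 FPKM in the WT libraries against 21.79 and 21.44 in the jmj28-3 libraries, with an interval of -0.27 to 0.07. These intervals do not reach the log2 changes of EXPA5, EXPA8 or EXPA10, though the differences between genes were not tested.

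EXPA17 and EXPA16 had the smallest p among genes not called, and they differed from WT in opposite directions. EXPA17 (AT4G01630), like EXPA14 linked to lateral root emergence, stood at 5.10 and 5.42 FPKM in the 2 WT libraries and at 3.64 and 3.25 in those of jmj28-3 (log2 change -0.49, limma adjusted p = 0.0572). EXPA16 (AT3G55500) had WT values of 1.03 and 1.22 FPKM and jmj28-3 values of 1.90 and 2.06 (log2 change 0.49, limma adjusted p = 0.106). The values of neither gene overlapped between genotypes. EXPA14 read 13.28 and 9.49 FPKM in the WT libraries against 9.40 and 8.85 in the jmj28-3 libraries, so a single WT library set most of its difference (limma adjusted p = 0.356). EXPA13 and EXPA20 had log2 changes of -0.14 and 0.07, and EXPA20 overlaps a noncoding gene on the other strand over 1061 bases.

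By coding sequence, 5 of the 6 called alpha-expansins were closest to another called one. EXPA1 and EXPA10 were each other's closest members, at 78.4% identity over aligned bases, and EXPA15 and EXPA5 were closest to EXPA10, at 76.2% and 73.1%. EXPA8 was closest to EXPA1, at 73.1%, and EXPA11 to the uncalled EXPA17, at 68.8%. The uncalled EXPA4 and EXPA16 were closest to each other, at 81.1%, EXPA6 to EXPA4, at 77.7%, and EXPA9 to EXPA6, at 74.5%. EXPA14 was closest to the called EXPA10, at 71.6%, and EXPA17 to the called EXPA11, at 68.8%, and neither EXPA14 nor EXPA17 was called. The uncalled EXPA13 was closest to EXPA9, at 61.2%, and the uncalled EXPA20 to EXPB3, at 63.9%. The longest identical run that any of the 14 tested alpha-expansins shared with another expansin was 36 bases. This grouping is a description and no relation between sequence and change was tested.

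The 6 beta-expansins gave no call. EXPB3 (AT4G28250) had the most transcript of the class, with 79.54 and 99.33 FPKM in the WT libraries and 84.3 and 80.35 in the jmj28-3 libraries. The groups overlapped, and the 95% interval of the log2 change was -0.38 to 0.16. EXPB1 (AT2G20750) stood at 15.51 and 17.45 FPKM in the 2 WT libraries and at 21.21 and 17.98 in those of jmj28-3 (limma adjusted p = 0.257). EXPB2 (AT1G65680), close to the minimum level for a test, had WT values of 0.41 and 0.31 FPKM and jmj28-3 values of 0.63 and 1.01. It passed that minimum only through the jmj28-3 libraries, and fell below it without jmj28-3 replicate 2, so its difference is not read as a direction, although it counts among the 16 genes without overlap. None of the 3 tested EXPB genes had an unadjusted p under 0.05 in limma. EXLB1 (AT4G17030) read 9.98 and 12.02 FPKM in the WT libraries against 10.45 and 9.83 in the jmj28-3 libraries, and overlapped (limma adjusted p = 0.627, unadjusted p = 0.387).

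The remaining 13 genes were too low for a test, and 10 of them were listed at 0 in all 4 libraries. EXPA2, known from germinating seeds, was at 0.05 FPKM in jmj28-3 replicate 1 and listed at 0 in the other 3 libraries. EXPA12 ran from 0.07 to 0.51 FPKM over the 4 libraries. EXPA21 to EXPA26 form a row of 6 genes on the minus strand of chromosome 5, at 15726243 to 15740605 of TAIR10.1, with no other gene among them. The only value above 0 in that row was 0.24 FPKM for EXPA21 in WT replicate 1, and EXPA21 overlaps AT5G39250, on the other strand, over 964 bases. EXPA22 and EXPA26 were 97.7% identical in coding sequence with a shared run of 208 bases, and EXPA23 and EXPA25 were 97.5% identical with 219. The submitters' processing notes name TopHat and RSEM without settings, so how reads shared by such copies were assigned is not known. A listed 0 does not show that these copies were silent. EXPB4, EXPB5 and EXPB6 were listed at 0 in all libraries, and EXPB4 and EXPB6 were 88.2% identical. The annotated pseudogenes EXPA19 (AT3G29365) and AT5G15546 were also at 0.

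Because FPKM are scaled by length, the levels can be added over genes. The summed FPKM of the 34 genes was 1063.76 and 1032.46 in the WT libraries and 750.09 and 733.69 in the jmj28-3 libraries. The mean sum was 1048 ± 22.1 in WT and 742 ± 11.6 in jmj28-3 (SD, n = 2), 1.41-fold lower. With 2 libraries per genotype the smallest p of an exact two-sided permutation test is 0.333, and this sum gave that value. The difference of 306 FPKM between the means is net, since the mean EXLA sum was higher in jmj28-3 (15.73 in WT, 46.84 in jmj28-3). The fall of EXPA1 equalled 74.8% of this net difference. Without EXPA1 the mean sum was 645 ± 29.3 in WT and 568 ± 14.2 in jmj28-3, 1.14-fold lower.

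**Figure D3:**
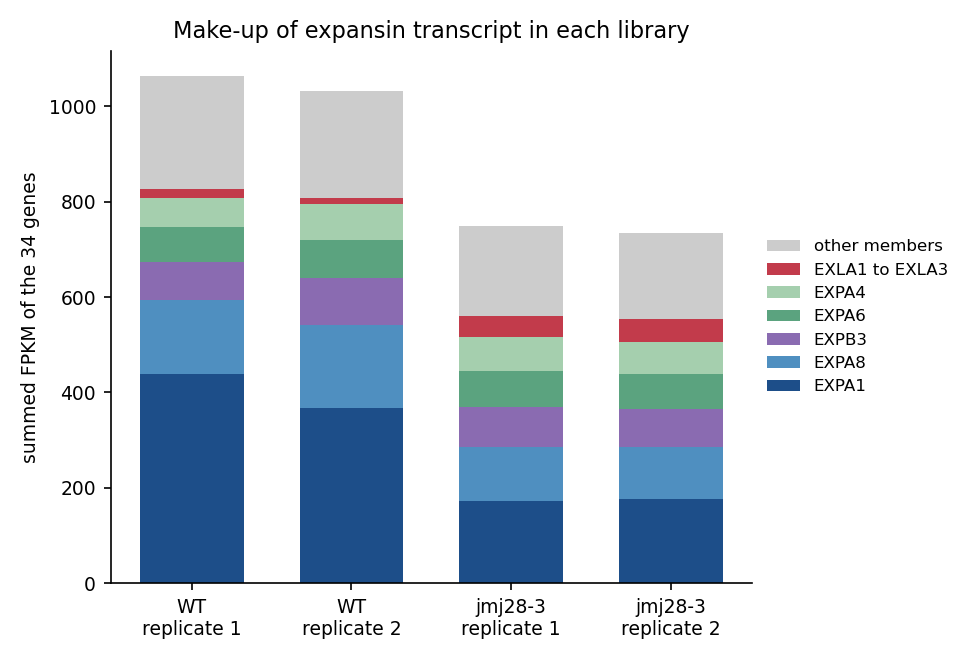
Summed FPKM of the 34 expansin genes (y axis) in each of the 4 libraries (x axis), split by gene, with the 3 EXLA genes as 1 block and the remaining genes in grey. The WT bars reach 1063.76 and 1032.46 and the jmj28-3 bars 750.09 and 733.69, and the EXPA1 block is the part that differs most.

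The make-up of expansin transcript differed along with the total. EXPA1 held 41.3% and 35.5% of summed expansin FPKM in the WT libraries and 23.0% and 24.0% in jmj28-3. EXLA genes held 1.80% and 1.20% in WT and 6.02% and 6.62% in jmj28-3. EXPB genes held 8.97% and 11.3% in WT and 14.2% and 13.5% in jmj28-3, with summed levels that overlapped, at 95.46 and 117.09 FPKM in the WT libraries and 106.14 and 99.34 in the jmj28-3 libraries. Alpha-expansins as a class went from 88.3% and 86.3% to 78.4% and 78.5%. These shares follow from the levels above and are not separate results.

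Summed markers of 3 cell types lay under both WT values in both jmj28-3 libraries. Of single tested genes, 55.2% did not overlap between genotypes, in either direction. The guard cell lineage list of 4 genes summed to 49.65 and 50.78 FPKM in the WT libraries and 41.06 and 37.32 in the jmj28-3 libraries. In it MYB60, a guard cell transcription factor gene, was 1.42-fold lower (limma adjusted p = 0.0262), and FAMA, KAT1 and SPCH were not called. The root hair list of 5, which includes EXPA7 and EXPA18, summed to 62.62 and 78.31 FPKM in the WT libraries and 52.93 and 47.28 in the jmj28-3 libraries. These 2 expansins gave most of it, 40.71 and 53.8 FPKM in the WT libraries and 35.64 and 31.25 in the jmj28-3 libraries. None of the 5 members was called by limma. At an unadjusted p under 0.05, 4 were lower, these 2 expansins among them, against the 13.7% of all tested genes given above. The endodermis list of 5 CASP genes, for proteins of the Casparian strip, summed to 96.31 and 101.96 FPKM in the WT libraries and 83.12 and 72.52 in the jmj28-3 libraries, with CASP4 called lower (adjusted p = 0.0329). No member of these 3 lists was at 0 in all libraries. The part of these markers in the lower alpha-expansin levels was not tested.

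The other marker lists overlapped between genotypes or lay higher in both jmj28-3 libraries. The mesophyll list of 4 summed to 63040 and 59704 FPKM in the WT libraries and 63166 and 61292 in the jmj28-3 libraries, and the xylem list of 3 to 98.08 and 102.09 in the WT libraries and 98.91 and 92.01 in the jmj28-3 libraries. Both overlapped between genotypes. None of the mesophyll genes was called by limma. At an unadjusted p under 0.05 CAB1 and CAB3 were higher and RBCS2B lower, against 10.6% and 13.7% of all tested genes. Each of these was without overlap, as were 55.2% of all tested genes. The 2 genes of dividing cells, CYCB1;1 and KNOLLE, summed to 40.22 and 51.81 FPKM in the WT libraries and 49.31 and 47.43 in the jmj28-3 libraries. The root tip list of 4 was low. It summed to 4.29 and 4.32 FPKM in the WT libraries and lay higher, at 4.85 and 4.71, in the jmj28-3 libraries. Its members differed in direction. SMB read 1.62 and 1.27 FPKM in the WT libraries and 2.12 and 2.1 in the jmj28-3 libraries. PLT1 was lower in jmj28-3 (1.17 and 1.14 in WT, 1.02 and 0.75 in jmj28-3), as was PLT2 (1.03 and 0.86 in WT, 0.83 and 0.71 in jmj28-3). WOX5 overlapped between genotypes, and none of the 4 was called by limma. Of the shoot meristem list, STM had a mean of 1.46 FPKM in WT, WUS was listed at 0 in all libraries, and CLV3 was above 0 in 1 library. That list summed to 1.21 and 1.7 FPKM in the WT libraries and 1.91 and 1.92 in the jmj28-3 libraries. STM alone overlapped between genotypes.

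The root hair expansins left out of the set gave values in the same direction as the lower alpha-expansins, without a call. EXPA7 stood at 18.08 and 22.98 FPKM in the 2 WT libraries and at 15.33 and 14.06 in those of jmj28-3 (limma adjusted p = 0.0973). EXPA18 had WT values of 22.63 and 30.82 FPKM and jmj28-3 values of 20.31 and 17.19 (limma adjusted p = 0.144). Both had an unadjusted p under 0.05.

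Further groups of wall-growth genes were read from the same fit. Proton pumps of the plasma membrane, the AHA genes that acidify the wall, gave no call among 9 tested of 11, with 1 gene lower at an unadjusted p under 0.05 in limma and a median log2 change of -0.10. The smallest p was that of AHA7, with 11.17 and 12.66 FPKM in the WT libraries and 8.28 and 9.37 in the jmj28-3 libraries (adjusted p = 0.0856), followed by AHA5 (adjusted p = 0.216). The main seedling pumps AHA1 and AHA2 had log2 changes of 0.05 and 0.015. Cellulose synthase genes gave no call among 8 tested of 10 in limma, and none had an unadjusted p under 0.05. The smallest p there was that of CESA2, with 45.03 and 41.71 FPKM in the WT libraries and 45.81 and 48.89 in the jmj28-3 libraries (adjusted p = 0.342), and next came CESA5 (adjusted p = 0.508).

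Xyloglucan endotransglucosylase/hydrolase genes (XTH) encode enzymes that cut and rejoin the xyloglucan between cellulose fibrils. Among 23 tested of 29, 6 were called higher and 3 lower, against 4.18% and 3.79% of all tested genes. TCH4 read 32.31 and 24.58 FPKM in the WT libraries against 316.85 and 295.55 in the jmj28-3 libraries (limma adjusted p = 0.0009). XTH9 stood at 108.51 and 110.36 FPKM in the 2 WT libraries and at 238.43 and 253.94 in those of jmj28-3 (limma adjusted p = 0.00131). Among those that fell, XTH26 had WT values of 9.62 and 13.56 FPKM and jmj28-3 values of 4.50 and 5.51, and XTH13 read 13.41 and 14.06 in the WT libraries against 6.87 and 5.70 in the jmj28-3 libraries (limma adjusted p = 0.0276 and 0.00777). Fits without 1 library called fewer XTH genes in each direction, as they did over all tested genes. In coding sequence XTH13 was 89.7% identical to XTH12, with a shared run of 47 bases. Values of XTH13 are therefore uncertain, to a degree that depends on read length. TCH4 was at most 75.3% identical to another XTH gene, XTH24, and its longest shared run, with XTH21, was 30 bases.

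**Figure D4:**
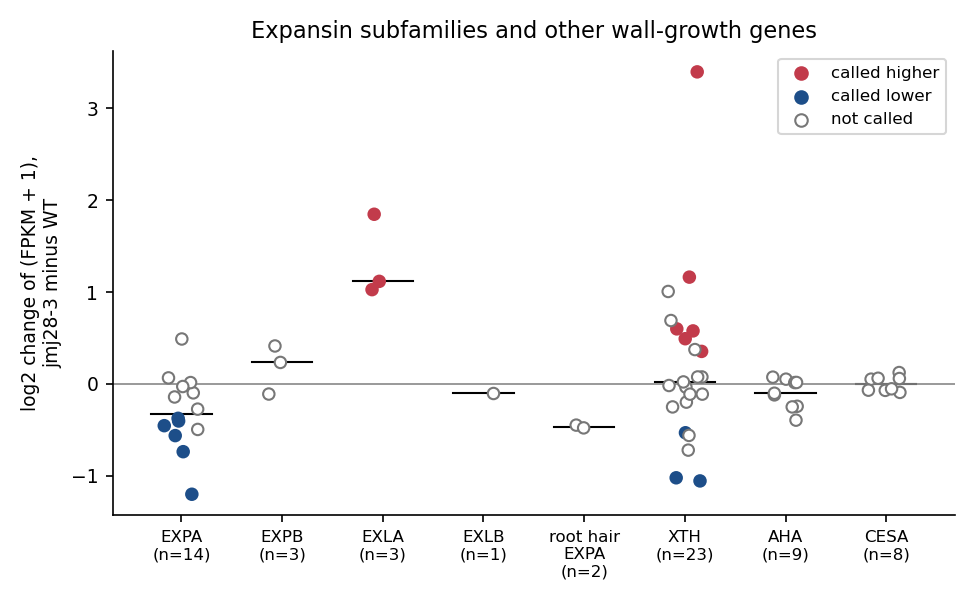
Log2 change of (FPKM + 1) in jmj28-3 minus WT (y axis) for each tested gene of the expansin classes and of the root hair expansin, XTH, AHA proton pump and CESA cellulose synthase groups (x axis); red was called higher, blue called lower, open points were not called, and bars are medians. EXLA has only red points, EXPA only blue and open ones, XTH both colours, and EXPB, AHA and CESA only open ones.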

How the data were processed

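Polyadenylated RNA of 4 seedling libraries was measured, and the labels tie every value column to a library, with 0 unmatched. The authors deposited FPKM per gene with 2 decimals. TopHat, RSEM, edgeR and the build TAIR10 are named in the submitters' processing notes, without versions or settings. Since FPKM are not counts, neither a count model nor a counting interval was used, and absolute depth is unknown.

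The test was limma 3.58.1 (R 4.3.3) on log2(FPKM + 1) for genes with a mean FPKM of at least 0.5, with genotype as the only term, a variance trend, two-sided tests and Benjamini-Hochberg adjustment over all tested genes. Adjusted p in the text come from limma. Folds are ratios of mean FPKM. Relative depth was the commonest ratio between libraries of FPKM from 0.2 to 1.

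Names, positions and sequences came from RefSeq's TAIR10.1 by gene identifier, which matched all 34 genes. The deposited table has no coordinates, so none were converted. Longest coding sequences were aligned globally with Biopython 1.88. The members and lists were chosen with earlier results of these data known. The rule for named genes took called members, the 3 with the highest mean in each class, the 2 uncalled with the smallest p, and the most similar pair of each class. Similarity used coding sequence in place of protein. Other expansins, AHA1, AHA2 and the other named list members were named after their values were seen. The alternatives are given in the closing section.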

Additional observations from a re-analysis of the deposited data

How the results depend on the processing

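The counts of calls depended on the settings. Testing every gene above 0 left 1 expansin gene higher and 4 lower, with 526 and 351 of all genes, and a fit with no variance trend left 1 and 2, with 469 and 287 of all genes and 3 XTH genes higher. Fits without 1 library gave 0 to 2 expansin genes higher and 0 to 3 lower, 70 to 398 and 21 to 164 of all genes, and 2 XTH genes higher and 0 to 2 lower. These fits have 3 libraries and 1 residual degree of freedom, and why calls were lost in them was not tested.

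Pseudocounts of 0.1 and 0.5 and quantile normalization gave 3 expansin genes higher and 6 lower. A minimum mean of 2 FPKM, which leaves EXLA3 untested, gave 2 and 6, with 913 and 852 of all genes. Median-of-ratios scaling gave 3 and 5, with 960 and 607 of all genes. The median log2 change of all genes was 0.001 with median-of-ratios scaling and -0.021 with quantile normalization. That of the expansin genes ran from -0.14 to 0.02 without 1 library, above 0 without WT replicate 2. No called expansin gene changed sign in any alternative. Among genes not called, EXPA6 was at 0.006 with median-of-ratios scaling. Without 1 library, EXPA6 ran from -0.097 to 0.041, EXPA4 from -0.135 to 0.166, EXLB1 from -0.226 to 0.02, EXPB3 from -0.268 to 0.049 and EXPA20 from -0.028 to 0.16, so each of these 5 changed sign. Leaving EXPA1 out moved the mean summed FPKM to 645 in WT and 568 in jmj28-3. Rescaling each library to the same sum gave 1064 and 749.

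The labels give replicate numbers but no shared source, so the pairing is not established. With replicate number as a block, 2 expansin genes were called higher and 4 lower, with 534 and 328 of all genes, and EXLA3, EXPA5 and EXPA15 were not called. Deviations of the replicate 1 libraries from their genotype means correlated at -0.133, and the crossed pairing, added after seeing the data, called 3 and 6 expansin genes, 1158 and 1129 of all genes and 2 root hair expansin genes lower.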
